A study of Homo sapiens with 24 samples.

Results

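Clone 35 is 1 of 3 clones of T47D, a luminal, estrogen receptor-positive breast cancer cell line, in which the TRPS1 protein carries an FKBP12 degron tag. The data described here are its 8 precision run-on sequencing (PRO-seq) libraries of the 24 in the series, chosen by the clone and treatment given in the sample labels: 4 from dishes treated with 0.1% DMSO and 4 from dishes treated with 100 nM dTAG-13 in DMSO, both for 90 minutes. Clones 28 and 39, with 8 libraries each, were used to estimate the spread between pairs and for comparison. A clone descends from a single edited cell, and according to the study's methods some genomic copies of *TRPS1* were knocked out in the editing, so that only tagged protein was made. Treated and control dishes of 1 replicate were collected together and the replicates at different times of the same day. The p-values compare dishes within these pairs, so they measure how the difference between treated and control varies from pair to pair. No untagged T47D cells treated with dTAG-13 are among these libraries, and loss of TRPS1 and other effects of the compound cannot be told apart. TRPS1 protein was not measured in these files.

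TRPS1 is an atypical member of the GATA family of zinc finger proteins. It binds GATA sequences and, unlike its relatives, is known mainly as a repressor that works with corepressor complexes. In luminal breast cells it is abundant and shares chromatin with the estrogen receptor (ER), GATA3 and FOXA1. PRO-seq maps RNA polymerases in the act of transcribing, and reads in a gene follow its transcription at the moment of harvest. dTAG-13 links the FKBP12 tag to cereblon, the substrate receptor of a ubiquitin ligase, and the tagged protein is then destroyed by the proteasome.

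*TRPS1* was transcribed at a high level in every library. The tag acts on the protein, so the transcription of the gene is no check of the labels. Levels are given as CPM, reads in a gene scaled to library depth with the trimmed mean of M-values (TMM). They are not scaled to gene length, so the CPM of different genes cannot be compared directly. In DMSO replicates 1 to 4 *TRPS1* was at 7832, 7543, 5812 and 5576 CPM, and in the matching dTAG-13 libraries 8590, 7916, 7321 and 6598 CPM. It was higher in dTAG-13 in every pair, but the groups overlapped because replicates 1 and 2 of both groups lay above replicate 4 of both. The log2 fold change was 0.19 (SE 0.047) and the adjusted p by edgeR's quasi-likelihood test 0.388, so the gene was not called. Without pair 2 the adjusted p was 0.00351 and the log2 fold change 0.24. In both other clones *TRPS1* was also higher in 4 of 4 pairs. By the same test its log2 fold change was 0.23 in Clone 28 (adjusted p 0.0561) and 0.17 in Clone 39 (adjusted p 0.576). The study lists it as gradually activated in its time course of Clone 28.

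After 90 minutes of dTAG-13, 21 of 22326 genes tested in Clone 35 passed an adjusted p of 0.1, which is 0.0941% of them, by a quasi-likelihood test in edgeR that compares the libraries within replicate pairs, adjusted by the method of Benjamini and Hochberg. Of these genes 18 rose (0.0806% of genes tested) and 3 fell (0.0134%), while with library totals in place of TMM 20 passed, 14 of them higher and 6 lower. In bulk counts a change in fewer cells and a smaller change in all cells cannot be told apart. The median size of the 21 changes was 0.248 on the log2 scale, and the only gene that rose by more than the 25.8% of *ELAPOR2* was *ART4*, which encodes an ADP-ribosyltransferase of the Dombrock blood group, at 66.5%. The genes that fell were *SDC1*, which encodes the heparan sulfate proteoglycan syndecan-1, *ADIRF*, the adipogenesis regulatory factor, and *BCOR*, a corepressor of BCL6 found in a Polycomb complex. All 21 moved the same way in 4 of 4 pairs, which 7.16% of all genes tested did upward and 7.51% downward. The groups did not overlap for 7 of them, 5 higher and 2 lower, beside 1.13% of all genes tested higher and 1.24% lower.

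These calls rest on the pairing and on the test. Without the replicate block edgeR called 0 genes, with 646 at an unadjusted p under 0.05, and DESeq2 with the replicate block also called 0, with 204 at that level, whereas the edgeR fit reported here had 1429 (6.4%). All 21 genes kept their direction under each of those fits. 1 treated library, dTAG-13 replicate 2, stood apart from the treated replicates 3 and 4 (chi-square per degree of freedom 13.6 and 11.1, beside 1.65 to 6.58 for the other replicate pairs within the groups). Without pair 2 the count was 55, 42 higher and 13 lower, and 18 of the 21 were among them. Without pair 3 it was 2, *TM4SF18-AS1* and *BACH1*, and without pair 4 it was 6, which included the same pair of genes.

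The libraries held between 4287721 and 9575803 reads in genes. Of the markers that define T47D cells, *ESR1* averaged 1431 CPM, *PGR* 1158, *GATA3* 834 and *FOXA1* 148 in DMSO, and all 15 identity markers listed passed the filter on low counts. Of 10 markers each, 2 of fibroblasts, 3 of immune cells and 5 of basal breast cells passed it. Levels were summed over all markers of a list, also those that did not pass the filter. The sums were 16.1 to 25.2 CPM in DMSO and 18.7 to 21.8 in dTAG-13 for fibroblasts. For immune cells they were 21.8 to 26.5 and 23.7 to 26.5, and for basal cells 43.7 to 51 and 48.2 to 51.2. The sums for T47D identity were 13200 to 17400 and 14500 to 18000. None of the listed markers was at 0 in all 8 libraries.

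Promoter sequences of RefSeq on GRCh38.p14, from 250 bases before to 50 bases after each start site, were matched by symbol for 18 of the 21 genes, which have 32 promoters among them. The GATA words AGATAA and TGATAA, searched on both strands, were present in 6 of the 32 (18.8%), beside 16.3% of all 35116 promoters. The word AGGTCA, the core recognised by ER and other nuclear receptors, was present in 5 (15.6%), beside 13.8%. These shares lie close to those of all promoters. The promoters below are shown because they belong to the gene that rose most, to the gene with the most even rise, to a gene with both kinds of word, and to a gene that fell. Capitals mark the words on either strand. *ART4* (chr12:14843477-14843776, minus strand) has GATA words that begin 37 and 7 bases before the start. *BACH1* has 3 promoters, of which the one shown (chr21:29304954-29305253, plus strand) alone holds GATA words, 196 and 144 bases before. *ELAPOR2* has 2, and the one shown (chr7:86965850-86966149, minus strand) holds a GATA word 128 bases and AGGTCA 62 bases before. *BCOR* has 2, and the one shown (chrX:40177228-40177527, minus strand) holds AGGTCA in reverse complement 201 bases before.
ART4: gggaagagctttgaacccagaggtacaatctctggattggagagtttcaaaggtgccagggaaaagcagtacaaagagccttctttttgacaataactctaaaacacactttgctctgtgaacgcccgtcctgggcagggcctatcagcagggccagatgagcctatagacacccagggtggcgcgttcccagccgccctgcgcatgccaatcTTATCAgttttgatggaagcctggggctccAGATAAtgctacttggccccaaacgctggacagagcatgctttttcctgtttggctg
BACH1: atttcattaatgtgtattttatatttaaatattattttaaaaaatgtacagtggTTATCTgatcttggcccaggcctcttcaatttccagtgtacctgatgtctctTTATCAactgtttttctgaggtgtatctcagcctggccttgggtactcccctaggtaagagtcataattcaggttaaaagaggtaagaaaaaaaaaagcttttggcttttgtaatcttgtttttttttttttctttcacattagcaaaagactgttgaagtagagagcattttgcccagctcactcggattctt
ELAPOR2: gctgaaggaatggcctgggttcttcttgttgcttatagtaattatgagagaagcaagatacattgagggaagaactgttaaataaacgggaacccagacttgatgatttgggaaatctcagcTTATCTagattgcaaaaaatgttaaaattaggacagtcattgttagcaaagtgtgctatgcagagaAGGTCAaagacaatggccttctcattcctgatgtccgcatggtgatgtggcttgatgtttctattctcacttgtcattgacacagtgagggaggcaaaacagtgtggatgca
BCOR: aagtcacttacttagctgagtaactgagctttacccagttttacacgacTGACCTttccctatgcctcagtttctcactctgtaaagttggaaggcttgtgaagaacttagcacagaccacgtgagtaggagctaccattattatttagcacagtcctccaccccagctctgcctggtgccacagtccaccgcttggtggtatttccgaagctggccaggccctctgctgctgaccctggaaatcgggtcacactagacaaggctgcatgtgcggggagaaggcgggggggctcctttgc

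Several of the genes that rose encode proteins of the cell surface or secreted proteins. *ART4* (chr12:14825569-14843526, minus strand, with places of genes on hg38 as GENCODE 44 gives them) was transcribed at 11.4, 10.7, 8.97 and 8.16 CPM in DMSO and at 18.3, 14.2, 15.8 and 16.2 CPM in dTAG-13. Every treated library lay above every control library. These levels stand on 48 to 63 reads per control library and 68 to 151 per treated one, and the log2 fold change was 0.74 (SE 0.13, adjusted p 0.0064). *TENM3* (chr4:182143987-182803024), which encodes a teneurin, a large transmembrane protein of cell adhesion, was at 263, 254, 242 and 241 CPM in DMSO and at 297, 291, 274 and 278 CPM in dTAG-13. Its groups did not overlap either, although the rise was 14% (log2 fold change 0.19, SE 0.039, adjusted p 0.0419). *ELAPOR2* (chr7:86876906-87059654, minus strand), which encodes a transmembrane protein, rose from 37.9, 40.9, 38.1 and 38.9 CPM to 45.3, 53.6, 50.3 and 46.6 CPM, again without overlap, by 0.33 (SE 0.073, adjusted p 0.0688).

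**Figure D1:**
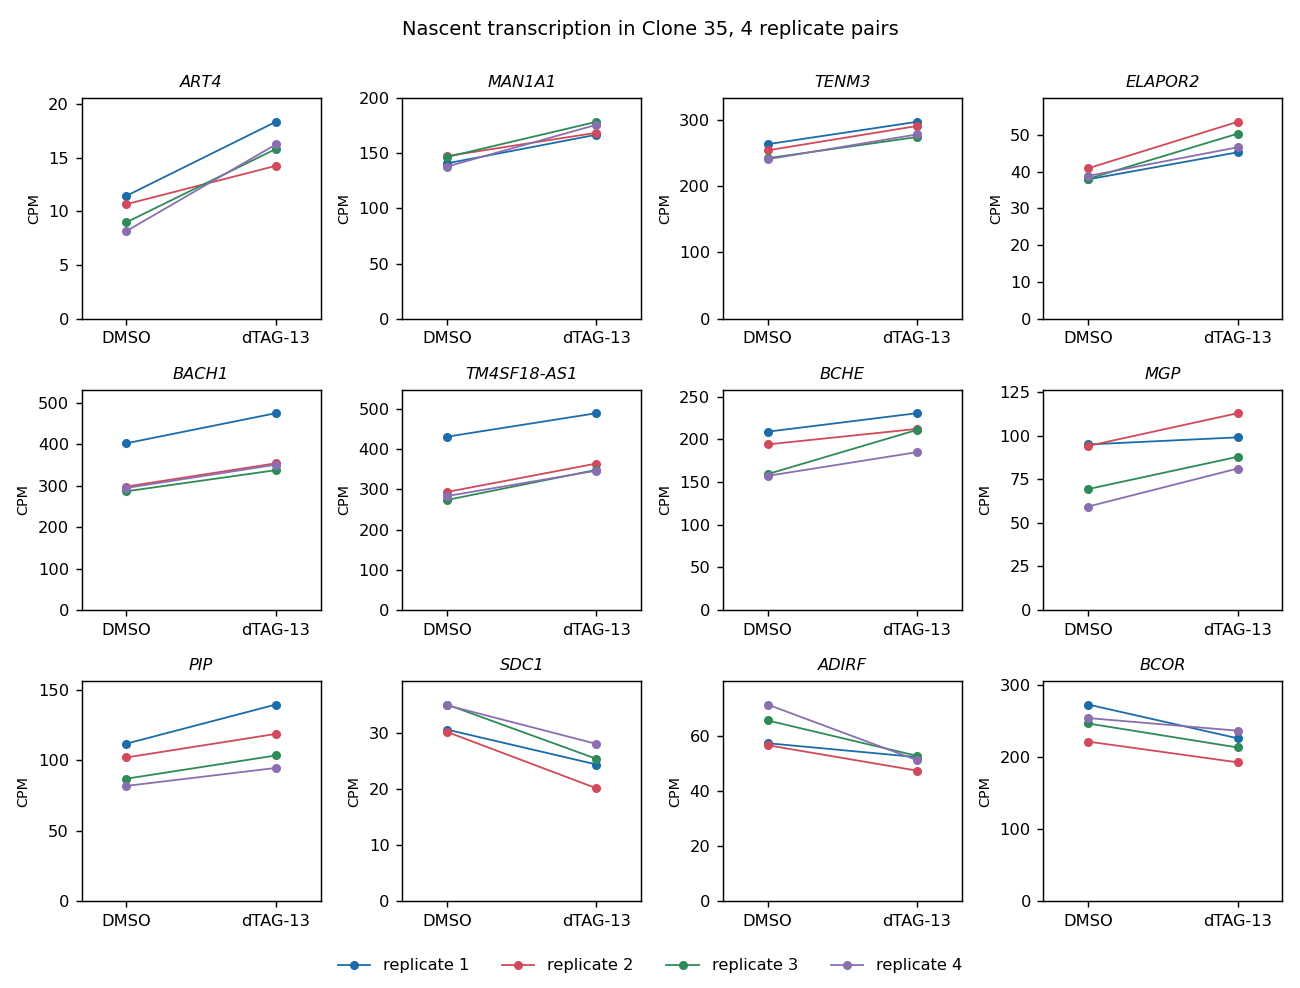
Transcription of 12 of the 21 genes in each Clone 35 library, in TMM-scaled CPM on axes that start at 0, with DMSO on the left, dTAG-13 on the right and a line for each replicate pair. All lines rise for *ART4*, *MAN1A1*, *TENM3*, *ELAPOR2*, *BACH1*, *TM4SF18-AS1*, *BCHE*, *MGP* and *PIP* and fall for *SDC1*, *ADIRF* and *BCOR*, and for *BACH1* and *TM4SF18-AS1* the replicate 1 libraries sit above the others in both groups.

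*SDC1* (chr2:20200797-20225433, minus strand) fell furthest. Its level was 30.5, 30.1, 35 and 34.8 CPM in DMSO and 24.3, 20.1, 25.3 and 28 CPM in dTAG-13, so the highest treated library lay below the lowest control. The log2 fold change was -0.42 (SE 0.09, adjusted p 0.0536 by edgeR's quasi-likelihood test). *PIP*, prolactin-induced protein, is a secreted product of apocrine breast cells. It went from 112, 102, 87 and 81.8 CPM to 140, 119, 103 and 94.6 CPM, a rise of 0.25 (SE 0.053, adjusted p 0.051). The groups overlapped, since treated replicates 3 and 4 fell within the range of the controls.

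*MGP*, matrix Gla protein, an inhibitor of tissue calcification, lies close to *ART4* on the same strand of chromosome 12, and the gene *C12orf60* runs antisense across both. It went from 94.9, 94, 69.3 and 59.3 CPM to 99, 113, 87.8 and 81.1 CPM, a rise of 0.28 (SE 0.06, adjusted p 0.0604). The rise in pair 1 was small and the groups overlapped. *BCHE*, butyrylcholinesterase, rose from a mean of 180 CPM ± 25.7 to 210 CPM ± 18.8 (SD, n = 4), and *ABCA12*, a lipid transporter of the ABC family, from 190 CPM ± 25.5 to 232 CPM ± 21.7. Their log2 fold changes were 0.23 and 0.29, with adjusted p of 0.0703 and 0.00592.

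Among the genes that rose were also *MAN1A1*, *FRS2*, *FYB2*, *NUDT4* and *PATJ*. *MAN1A1* (chr6:119177205-119349761, minus strand), which encodes a Golgi mannosidase that trims N-glycans, was at 141, 148, 147 and 138 CPM in DMSO and at 167, 169, 179 and 176 CPM in dTAG-13. The 2 groups stood well apart, with an SD of 4.58 and 5.66 CPM around means of 143 and 172 CPM. The log2 fold change was 0.27 (SE 0.05, adjusted p 0.00811). *FRS2*, the docking protein that couples fibroblast growth factor receptors to MAP kinase signalling, went from 765, 722, 571 and 529 CPM to 835, 788, 757 and 666 CPM. Its rise of 0.25 (SE 0.042, adjusted p 0.00624) was larger in pairs 3 and 4 than in pairs 1 and 2, and the groups overlapped. *FYB2*, an adaptor protein, rose by 0.28 (adjusted p 0.051), *NUDT4*, a hydrolase of inositol pyrophosphates with near-identical copies elsewhere in the genome that make its counts less certain, by 0.20 (adjusted p 0.0744), and *PATJ*, a scaffold of tight junctions and the Crumbs polarity complex, by 0.15 (adjusted p 0.0703). *PATJ* was transcribed at a mean of 1114 CPM ± 153 in DMSO and 1233 CPM ± 101 in dTAG-13 (SD, n = 4), and the groups overlapped.

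The regulators of transcription among the 21 genes were *BACH1*, which rose, and *BCOR*, which fell. *BACH1* (chr21:29194071-29630751), a repressor that heme releases from genes of iron and oxidative stress, was at 403, 298, 287 and 295 CPM in DMSO and at 475, 354, 338 and 351 CPM in dTAG-13. The first pair lay above the rest in both groups, so the groups overlapped, but the 4 rises were nearly equal. The log2 fold change was 0.24 (SE 0.042, adjusted p 0.00592). *BCOR* (chrX:40049815-40177329, minus strand) went from 272, 221, 246 and 254 CPM to 226, 192, 213 and 236 CPM, which overlapped. It fell by 0.20 on the log2 scale (SE 0.044, adjusted p 0.0744), the smallest decline of the 3. *ADIRF* (chr10:86968432-86983934) was at 57.2, 56.5, 65.5 and 71.2 CPM in DMSO and at 52.2, 47.3, 52.6 and 51.1 CPM in dTAG-13, with every treated library below every control. Its log2 fold change was -0.31 (SE 0.065, adjusted p 0.046), with the largest drop in pair 4. *ADIRF* overlaps ENSG00000271880 on its own strand and *MMRN2* on the other, and *BACH1* spans several small noncoding genes. Reads in the shared stretches may therefore belong to an overlapping gene, and how they were counted is not given.

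The remaining genes were *RBBP8*, *TPD52L1*, *FAM107B* and 2 long noncoding RNAs. *RBBP8* encodes CtIP, which starts the resection of broken DNA ends, and rose by 0.24 (adjusted p 0.0131). *TPD52L1*, of the tumor protein D52 family, rose by 0.24 (adjusted p 0.0744), and *FAM107B* by 0.23 (adjusted p 0.0808). *TM4SF18-AS1* (chr3:149284782-149333653), a noncoding RNA antisense to *TM4SF18*, had the smallest p-value. It was at 431, 294, 274 and 283 CPM in DMSO and at 490, 364, 349 and 346 CPM in dTAG-13, so that replicate 1 lay above the others in both groups, and rose by 0.28 (SE 0.042, adjusted p 0.000732). ENSG00000230623 (chr1:200333193-200478669), a noncoding RNA with no symbol in the annotation, rose by 0.24 (adjusted p 0.0228) from 122, 116, 112 and 104 CPM to 142, 135, 130 and 129 CPM, and its groups did not overlap.

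**Figure D2:**
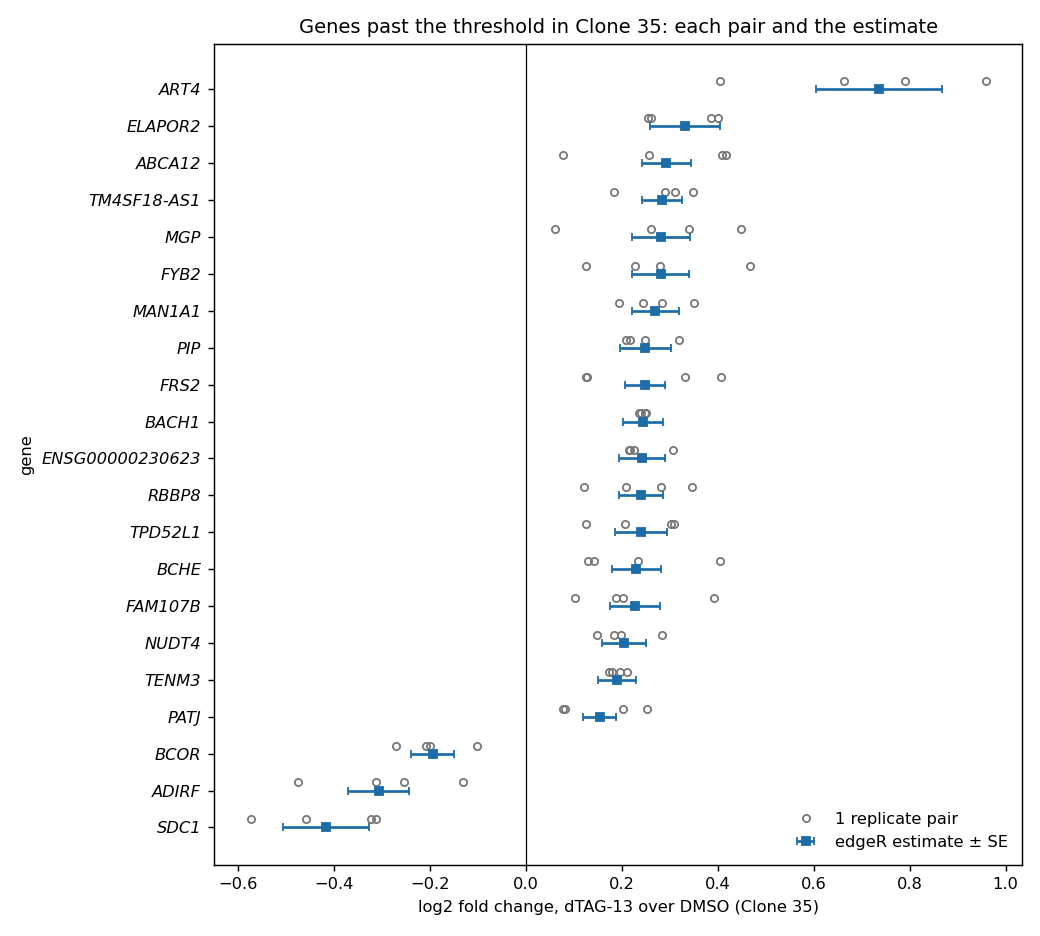
Log2 fold change of dTAG-13 over DMSO for the 21 genes called in Clone 35, with an open circle for each of the 4 replicate pairs and a square with bars for the edgeR estimate ± SE. Every circle lies on the side of its gene's estimate, *ART4* at 0.74 and *SDC1* at -0.42 lie furthest from 0, and the circles of *BACH1* and *TENM3* are the most tightly grouped.

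The values around the threshold were continuous. The last gene inside it, *FAM107B*, had an adjusted p of 0.0808, and among those just outside stood *SEL1L* and *SYT1* (0.101 each) and *RESF1* and *CD47* (0.106 each), with log2 fold changes of 0.19 to 0.23. *SEL1L* encodes a subunit of the complex that retrotranslocates misfolded proteins from the endoplasmic reticulum, and *CD47* the surface signal that restrains phagocytosis.

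The study sorted genes by their kinetics in a time course of TRPS1 degradation in Clone 28, and these lists were examined in Clone 35. The libraries of that time course were not analysed here. It used a lower dose of dTAG-13 together with a second degrader, sampled several times over a day, and called genes on all times together. The treatment, the times and the test therefore differ from those of Clone 35 here. Of 236 genes listed as gradually activated, 12 were called and all 12 rose (*BACH1*, *ABCA12*, *FRS2*, *ART4*, *MAN1A1*, *RBBP8*, *FYB2*, *ELAPOR2*, *PATJ*, *BCHE*, *TPD52L1* and *FAM107B*). At an unadjusted p under 0.05, 105 were higher and 1 lower, where 3.48% of all genes tested were higher and 2.92% lower. A positive log2 fold change was measured for 218 of the 236, beside 11118 of all 22326, and the median was 0.11, beside -0.00052. Of 144 transiently activated genes, *MGP* was called, 27 were higher and 2 lower at an unadjusted p under 0.05, and the median was 0.046. The median was positive in pairs 1, 3 and 4 and -0.0019 in pair 2.

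Of 217 genes listed as gradually repressed, *ADIRF* and *BCOR* were called and fell, 47 were lower and 0 higher at an unadjusted p under 0.05 in edgeR, and the median was -0.068. The uncalled members with the smallest p included *GSE1*, a subunit of a chromatin complex (log2 fold change -0.14, adjusted p 0.113), *CBFA2T3*, a corepressor of the ETO family (-0.20, adjusted p 0.118), and *C16orf74* (-0.19, adjusted p 0.142). Of 478 transiently repressed genes, edgeR called 0, with 29 higher and 28 lower at an unadjusted p under 0.05, and the median was -0.0012. Of all genes tested, 3.48% were higher and 2.92% lower at that level. The 6 called genes in none of the study's lists were *TM4SF18-AS1*, ENSG00000230623, *TENM3*, *PIP*, *SDC1* and *NUDT4*.

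The study also listed ER target genes that were activated or repressed after TRPS1 depletion in the same time course. Among the 65 activated ER targets, *FRS2*, *RBBP8* and *TPD52L1* were called and rose. At an unadjusted p under 0.05, 20 were higher and 2 lower, beside 3.48% and 2.92% of all genes tested. The median was 0.053, with 46 positive. *RESF1* (0.23, adjusted p 0.106), *FSIP1* (0.21, adjusted p 0.142) and *HSPB8*, a small heat shock protein (0.17, adjusted p 0.223), followed without passing. Among the 58 repressed ER targets edgeR called 0, 14 were lower and 0 higher at an unadjusted p under 0.05, and the median was -0.056, with 13 positive. *CBFA2T3* and *C16orf74*, given above, had the smallest p-values of that list, and *RARA*, the retinoic acid receptor alpha, followed at -0.13 (adjusted p 0.53).

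The best known estrogen-induced genes were followed by name. *GREB1*, a coactivator of ER, averaged 856 CPM ± 59.9 in DMSO and 842 CPM ± 23 in dTAG-13 (SD, n = 4). *MYC* averaged 75.4 CPM ± 11.3 and 76.5 CPM ± 7.06, and *PGR* 1158 CPM ± 167 and 1174 CPM ± 130. *CCND1*, which encodes the cell cycle protein cyclin D1, averaged 138 CPM ± 11.7 and 127 CPM ± 7.23, with a log2 fold change of -0.12 (adjusted p 0.648). *TFF1*, a short gene of 4254 bases, held few reads in this clone, at 1.24 to 3.81 CPM in DMSO. For each of these genes the groups overlapped. Of 30 such genes in a textbook list, *RBBP8* and *TPD52L1* were called, and the median was -0.026. At an unadjusted p under 0.05, 5 were higher and 6 lower, beside 3.48% and 2.92% of all genes tested. *HSPB8*, given above, was among the higher and *RARA* and *CCND1* among the lower.

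Genes of cholesterol and fatty acid synthesis are switched on by the sterol-sensing SREBP factors. edgeR called 0 of 33. At an unadjusted p under 0.05, 8 were higher and 0 lower, beside 3.48% and 2.92% of all genes tested. A positive log2 fold change was measured for 25, and the median was 0.051. *MSMO1*, a sterol demethylase, was at 22.6, 36.2, 33.7 and 39.7 CPM in DMSO and at 38.7, 43.7, 41.3 and 43 CPM in dTAG-13, with a log2 fold change of 0.33 (adjusted p 0.152). Pair 1 set much of it, as its control was the lowest of the 8 libraries. *SCD*, the stearoyl-CoA desaturase, was at 101, 116, 120 and 114 CPM in DMSO and at 99.5, 143, 136 and 144 CPM in dTAG-13, higher in 3 of 4 pairs (0.21, adjusted p 0.152, and called without pair 1 with a log2 fold change of 0.27). *HMGCS1*, which makes the precursor of mevalonate, had a log2 fold change of 0.24 (adjusted p 0.388) and *SC5D* of 0.17 (adjusted p 0.43).

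**Figure D3:**
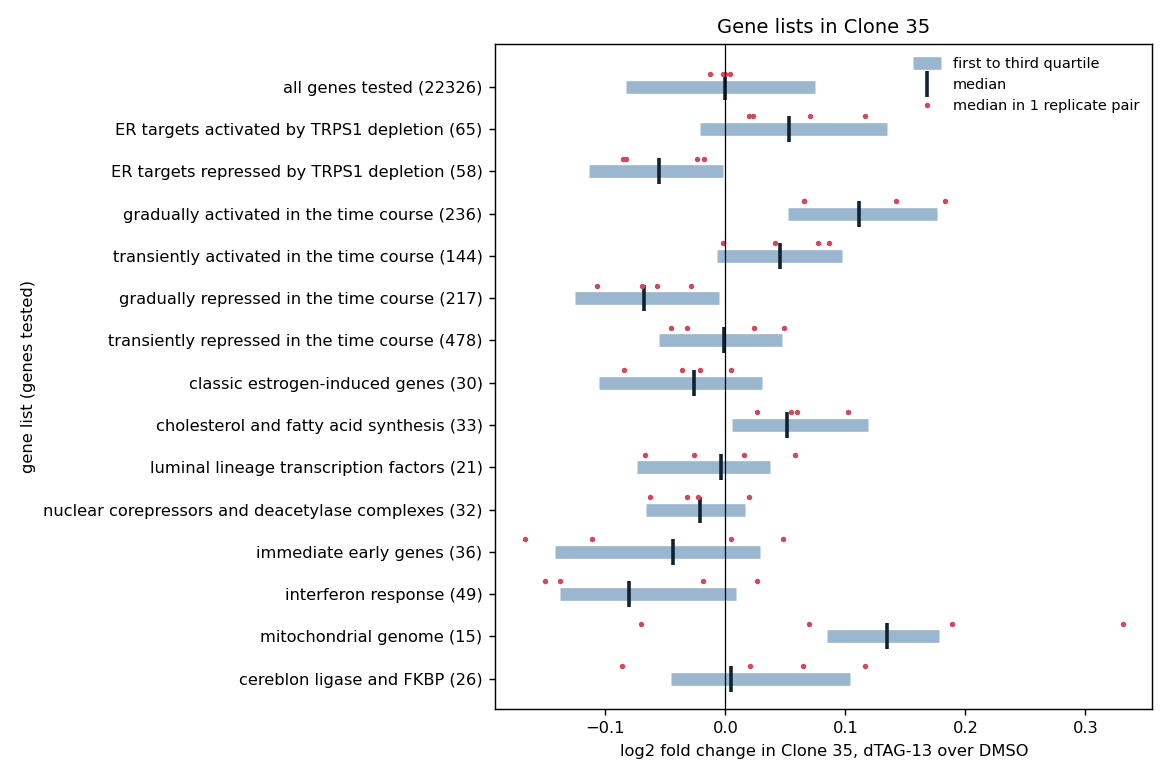
Log2 fold changes in Clone 35 by gene list, with the number of genes tested in brackets, a bar from the first to the third quartile, a tick at the median and a dot for the median in each replicate pair. The gradually activated genes have a median of 0.11 and the gradually repressed genes of -0.068, while all genes tested are centred on -0.00052, and for the mitochondrial genome and the interferon list the dots of the 4 pairs fall on both sides of 0.

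Luminal lineage factors and corepressors gave few calls. edgeR called 0 of 21 luminal transcription factors, 3 of which were higher and 2 lower at an unadjusted p under 0.05. Of all genes tested, 3.48% were higher and 2.92% lower at that level. *SPDEF*, an ETS factor of luminal cells, had a log2 fold change of -0.16 (adjusted p 0.425) and did not pass. Of 32 corepressor and deacetylase genes *BCOR* was called, and 2 were higher and 4 lower at an unadjusted p under 0.05. Of 26 genes of the cereblon ligase, FKBP proteins and known cereblon substrates, edgeR called 0, with 4 higher and 1 lower at an unadjusted p under 0.05. *ZNF692*, a zinc finger gene also listed as gradually activated, came closest, at 31.5, 27.7, 36.4 and 33.3 CPM in DMSO and 38, 43.1, 42.4 and 41 CPM in dTAG-13, without overlap (log2 fold change 0.35, SE 0.083, adjusted p 0.113).

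Other lists moved unevenly between the pairs. All 15 genes of the mitochondrial genome had positive log2 fold changes with a median of 0.14, of which edgeR called 0 and 2, *MT-ND1* and *MT-ND2*, had an unadjusted p under 0.05. The median was -0.071, 0.33, 0.19 and 0.070 in pairs 1 to 4, so the highest value came from pair 2. In the other clones the median of this list was -0.136 (Clone 28) and 0.132 (Clone 39). Of 49 interferon response genes edgeR called 0, with 0 higher and 4 lower at an unadjusted p under 0.05 and a median of -0.080. Of all genes tested, 3.48% were higher and 2.92% lower at that level. *ISG20*, an interferon-induced exonuclease, was at 14.1, 13, 13.3 and 12 CPM in DMSO and at 9.17, 9.63, 8.79 and 10.8 CPM in dTAG-13, without overlap, but did not pass (-0.44, adjusted p 0.433). Of 36 immediate early genes edgeR called 0, with 0 higher and 5 lower at that level. *EGR1*, the growth factor-induced zinc finger gene, went from 9.54, 8.63, 8.66 and 8.29 CPM to 6.36, 5.02, 7.33 and 6.17 CPM (-0.48, adjusted p 0.58). The median of the immediate early genes was near 0 or positive in pairs 1 and 2 and negative in pairs 3 and 4.

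The remaining lists gave 1 call, *FRS2*, among 36 genes of receptor tyrosine kinases and MAPK feedback. edgeR called 0 in each of the others. At an unadjusted p under 0.05, 3.48% of all genes tested were higher and 2.92% lower. At that level 4 of 20 YAP and TEAD output genes were higher and 1 lower, and likewise 4 and 1 of 28 heat shock genes. The counts were 3 higher and 0 lower of 55 genes of mitosis, 1 and 1 of 54 genes of G1/S and DNA replication, 1 and 0 of 23 p53 targets, 3 and 1 of 33 ATF4 stress genes and 0 and 1 of 33 hypoxia genes. Of 80 cytosolic ribosomal protein genes 0 were higher and 3 lower, of 52 ribosome biogenesis genes 2 and 1, of 48 translation factors 2 and 0, and of 31 proteasome subunits 0 and 1. Of 26 genes of epithelial-mesenchymal state 1 was higher and 2 were lower, of 8 keratins 0 and 1, of 21 clock genes 0 and 3, and of 9 GATA family genes 1, *TRPS1* itself, and 0.

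The 21 genes were then followed in the other clones, whose treated and control libraries are their own. By the same edgeR test 263 genes (1.18% of genes tested) passed in Clone 28 and 16 (0.0717%) in Clone 39. All 21 genes had the same sign in Clone 28 and in Clone 39. In Clone 28, 18 of them passed, which is 85.7% of the 21 and 6.84% of the 263. In Clone 39, 6 passed, which is 28.6% of the 21 and 37.5% of the 16. These 6 were *TM4SF18-AS1*, *RBBP8*, ENSG00000230623, *PIP*, *BCOR* and *NUDT4*. For 15 of the 21, all 4 pairs moved in the Clone 35 direction in both other clones. Of the 263 genes called in Clone 28, 238 (90.5%) had the same sign in Clone 35. The share of all genes tested with the same sign across clones was not computed, so these counts have no background beside them.

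The size of the change was larger in Clone 35 than in Clone 28 for 3 of the 21 and larger than in Clone 39 for 13. The 3 that did not pass in Clone 28 were *TENM3*, *SDC1* and *ELAPOR2*. *SDC1* had a log2 fold change of -0.42 (SE 0.09) in Clone 35, -0.10 (SE 0.099) in Clone 28 and -0.099 (SE 0.10) in Clone 39. *TM4SF18-AS1* rose by 0.48 (SE 0.044) in Clone 28 and 0.29 (SE 0.045) in Clone 39, and *BACH1*, which rose by 0.32 (SE 0.043) in Clone 28, had a log2 fold change of 0.10 (SE 0.045) in Clone 39, where it did not pass (adjusted p 0.806). *PIP* rose by 0.44 (SE 0.052) in Clone 28 and 0.40 (SE 0.074) in Clone 39, more than its 0.25 in Clone 35.

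**Figure D4:**
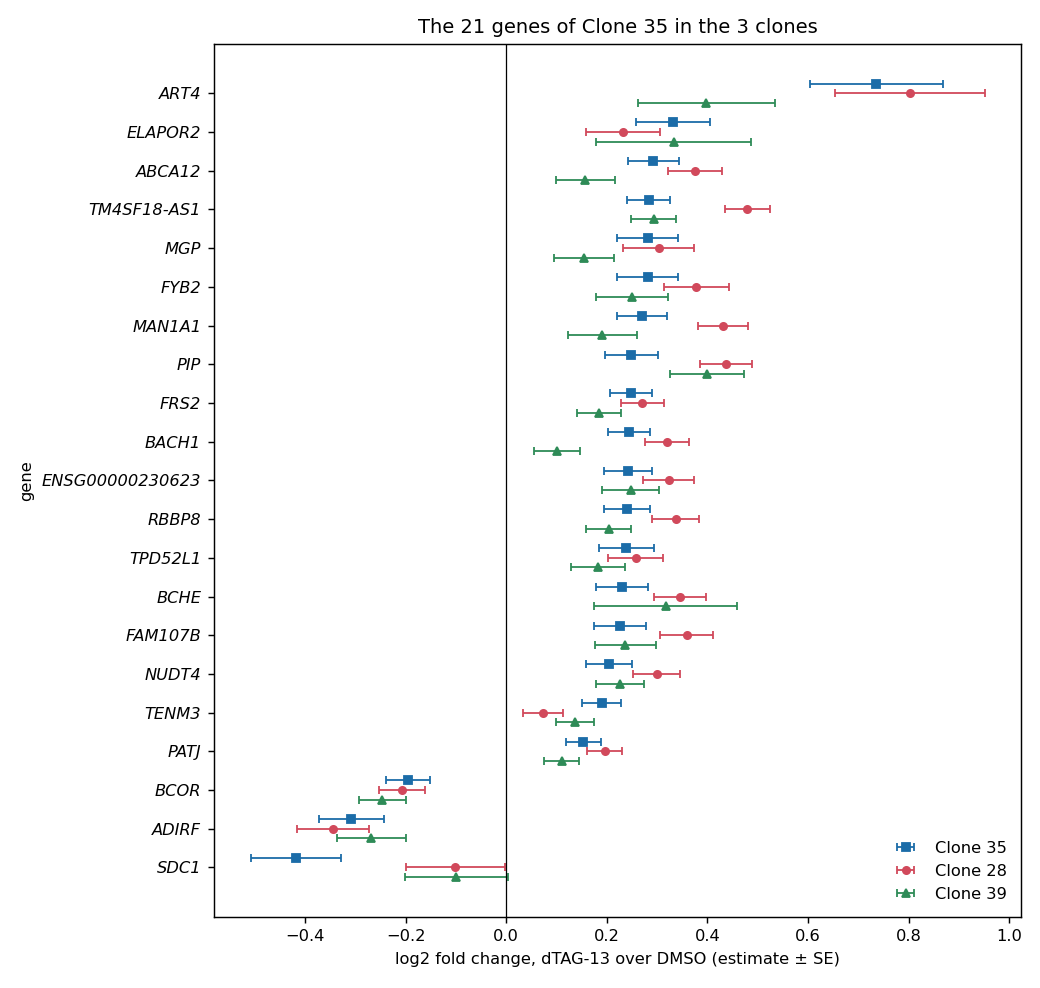
Log2 fold change ± SE, from the edgeR fit, of the 21 genes called in Clone 35, in Clone 35 (squares), Clone 28 (circles) and Clone 39 (triangles). All estimates lie on the same side of 0 in the 3 clones. *SDC1* is at -0.42 in Clone 35 and close to -0.10 in the others. Of the 21 genes it differs most from the mean of the other clones, relative to the SE of that difference.

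The difference between Clone 35 and the mean of the other clones was tested in the same fit. At an adjusted p of 0.1 edgeR called 0 genes (0%), and 989 (4.43%) had an unadjusted p under 0.05, while DESeq2 called 0 with 108 at that level. Among the 21 genes the unadjusted p was under 0.05 for *SDC1* (difference -0.32, p 0.00823) and *PIP* (difference -0.17, p 0.0194). The 5 smallest p-values belonged to *PIK3R6*, *ZNF280D*, *PLK2*, *RNU5F-1* and *BORCS8-MEF2B*. *PIK3R6*, a regulatory subunit of PI3K gamma, was at 1.11 to 5.57 CPM in DMSO and 0.574 to 2.09 CPM in dTAG-13, with 1 of 4 pairs higher, and its difference was -2.37 (SE 0.56). *ZNF280D*, a zinc finger gene, went from 71.3, 70.4, 67.8 and 65.3 CPM to 82.9, 83.9, 77.7 and 74.5 CPM without overlap (0.21, adjusted p 0.142), beside -0.058 in Clone 28 and -0.050 in Clone 39. *PLK2*, a polo-like kinase, rose in Clone 28 (0.30, adjusted p 6.68e-05) and Clone 39 (0.26, adjusted p 0.00503) and had a log2 fold change of 0.072 in Clone 35 (adjusted p 0.844). *RNU5F-1* is a member of the multicopy U5 small nuclear RNA family and *BORCS8-MEF2B* overlaps *BORCS8* and *MEF2B* on its own strand, so that the counts of both are uncertain.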

How the data were processed

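PRO-seq was analysed for Clone 35 with the libraries of Clones 28 and 39 in the same fit. The authors removed adapters with cutadapt (version 1.8.1 in the submitters' processing notes), deduplicated reads by the unique molecular identifier at the 3' end, reverse complemented them, removed reads from ribosomal DNA, aligned the rest to hg38 with Bowtie2 (2.4.4, with SAMtools 1.9) and tallied them per gene using bedtools. The deposited values are counts, whole reads per gene without normalization. The annotation and the strand setting of the counting are not given in the sources used here. Of 475 genes antisense within a coding gene, 81 (17.1%) had more counts than their host, against 7 of 664 (1.05%) on the same strand, each with at least 1000 counts in all. Names and places are those of GENCODE 44, which held 60463 of the 60605 identifiers.

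The fit used edgeR 4.0.16 under R 4.3.3. Low genes were dropped by filterByExpr (6 groups, minimum count 10) and TMM set the library scale. The robust quasi-likelihood model held the 12 pairs as blocks and the dTAG-13 effect of each clone, which left 9 residual degrees of freedom. The Benjamini-Hochberg adjustment ran over every gene in the fit and the threshold was 0.1, and SE is the log2 fold change divided by the square root of F. The labels state that the treatments of a replicate were collected simultaneously. In Clone 35 the deviations of same-numbered libraries from their group means correlated at 0.208, 0.133, 0.263 and 0.318. Some unlike-numbered libraries correlated as well, DMSO 1 with dTAG-13 2 at 0.286 and DMSO 2 with dTAG-13 1 at 0.111. DMSO 3 with dTAG-13 4 gave 0.242 and DMSO 4 with dTAG-13 3 gave 0.2. Between replicates 1 and 2 and replicates 3 and 4 the correlations were negative, so these values do not single out same-numbered pairs. Between the replicates of a group the spread of counts exceeded counting error (chi-square per degree of freedom 1.65 to 13.6). With the pairs as blocks the median dispersion in edgeR was 0.00522, and the share of counting error in the SE was not tested. The model was tested on simulated data. These were drawn with the fitted dispersions and without differences between replicate pairs, so they do not test the pairing.

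The genes named were *TRPS1*, all genes past the threshold, up to 4 further members with the smallest p in each list described, the 5 with the smallest p for a difference from the other clones, *ESR1*, *PGR*, *GATA3*, *FOXA1*, *GREB1*, *TFF1*, *MYC* and *CCND1*. *GBA3* was picked out after its values were seen. The lists and the comparison were chosen with earlier results of these data known. Lists are described by counts and medians, with no test. The alternatives were no replicate block, Clone 35 libraries only, DESeq2 1.42.0, scaling by RLE or by library totals, leaving the filter out or asking for at least 10 counts in every Clone 35 library, a threshold of 0.05, and leaving out each replicate pair and each other clone. All per-sample columns were used. A few genes that this rule names are not reported here.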

Additional observations from a re-analysis of the deposited data

Results flagged for a closer look

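Of 168 groups of 4 libraries, from the 84 genes described in Clone 35, 10 had a library far from the other 3 by Dixon's criterion, which chance alone gives in about 1 group of 20. For *BACH1* replicate 1 was highest in both groups, with a gap of 0.901 of the range in DMSO and 0.879 in dTAG-13, and for *TM4SF18-AS1* likewise with 0.873 and 0.876. *NUDT4* had replicate 1 highest in dTAG-13 (0.838), and *GSE1* had it highest in DMSO (0.833) and in dTAG-13 (0.895). *SCD* and *SC5D* had replicate 1 lowest in dTAG-13 (0.834 and 0.855), at 99.5 CPM beside 136 to 144 CPM for *SCD*. *MT-ND2* had DMSO replicate 4 lowest (0.875), at 253 CPM beside 361 to 376 CPM.

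For some genes all 4 pairs of Clone 35 moved against all 4 of another clone. The log2 fold change of *ZNF280D* was 0.213 in Clone 35 and -0.0585 in Clone 28. That of *RNU5F-1* was -0.197 beside 0.205 in Clone 28, and that of *BORCS8-MEF2B* -0.141 beside 0.105 in Clone 28 and 0.12 in Clone 39. *TBL1XR1*, a corepressor subunit, was at 0.0883 beside -0.0564 in Clone 39. The difference of each from the mean of the other clones was tested in edgeR, and none passed after Benjamini-Hochberg adjustment. The difference from a single clone was not tested.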

How the results depend on the processing

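In Clone 35, 21 genes passed as reported. The count was 28 with RLE size factors, 20 with library totals only, 27 with Clone 35 libraries only and 21 without Clone 28. It was 10 at a threshold of 0.05, 33 with at least 10 counts in every Clone 35 library, 34 without Clone 39, 73 with no filter on low counts, and 2 to 55 without 1 replicate pair. With no replicate block, that is without the pairing, edgeR called 0, with 646 at an unadjusted p under 0.05. DESeq2 with the replicate block called 0, with 204 at that level. DESeq2 put the gene-wise dispersion at its minimum for 90.6% of genes, and the median dispersion it then used was 0.0172, against 0.00522 in edgeR. The part of this in the lost calls was not tested. Every one of the 21 genes kept its direction under all 13 alternatives that refit the model. Called under 11 of the 13 were *TM4SF18-AS1* and *BACH1*, and under 5 *ELAPOR2*, *BCOR* and *NUDT4*. *TRPS1* passed with no filter (log2 fold change 0.193, adjusted p 4.61e-07) and without pair 2, and its value without 1 pair ranged from 0.152 to 0.236. The cause was not tested. The difference from the other clones gave 0 genes as reported, 8 with no filter, of which 3 were 5S RNA pseudogenes, and 0 to 1 without 1 pair, where *PIK3R6* passed without pair 2. The sign turned for *FOXA1* with RLE size factors (0.000909), and without 1 pair *FOXA1* ranged from -0.083 (pair 4) through 0.0314 (pair 1) to 0.103 (pair 2), *GREB1* from -0.0518 (pair 4) through 0.003 (pair 2) to 0.0172 (pair 1), *MYC* from -0.0111 (pair 3) to 0.0821 (pair 1) and *PGR* from -0.00227 (pair 3) to 0.0468 (pair 1). The median of the gradually activated genes ranged from 0.0916 to 0.14 and that of the gradually repressed genes from -0.085 to -0.0565. The median SE was 0.108 on the log2 scale, and a change no larger than its SE cannot be told from 0. The SE differed between genes, at 0.034 for *PATJ* and 0.43 for *PIK3R6*, so these libraries have no single limit of resolution.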

Other observations

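*GBA3*, which encodes a cytosolic beta-glucosidase of liver, held 2438 reads in dTAG-13 replicate 2 of Clone 35 and 5 to 30 reads in each of the other 23 libraries of the series. Its log2 fold change was 5.8 (SE 0.96) and its adjusted p by edgeR's quasi-likelihood test 0.121, so it was not called. Left out, the chi-square per degree of freedom of that library against treated replicates 3 and 4 was 13.4 and 10.9, near the values with it. The source of the reads was not tested.

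Replicates 1 and 2 of Clone 35 deviated together and apart from replicates 3 and 4. DMSO replicate 1 and dTAG-13 replicate 2 correlated at 0.286 in their deviations from the group means and DMSO replicate 1 and dTAG-13 replicate 4 at -0.312, and in Clones 28 and 39 replicate 1 against replicate 4 gave -0.235 and -0.208.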
